A study of Mus musculus with 12 samples.

Results

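Gata1 and Gata2 are the GATA-binding transcription factors that set the mast cell lineage, and each is read by 1 probe of the nCounter Myeloid Innate Immunity Panel. The 2 genes were taken by their symbols from the 734 endogenous probes of the panel and followed through 12 libraries of mouse bone marrow-derived mast cells (BMMCs). BMMCs are primary mast cells grown from total bone marrow in IL-3 for at least 4 weeks. They were edited with Cas9 so that a ZsGreen reporter with a polyA-stop cassette was inserted at Kit (c-Kit KO, the edited control) or at Mettl3 (Mettl3 KO), and ZsGreen-positive cells were sorted. All 4 groups were therefore edited, sorted and grown in IL-3, and none was unedited. Each genotype was measured at rest and after 4 h with complexes of IgE and its antigen, in 3 replicates per group. The sorted cells were a population, not a clone, and the labels give no strain, age or sex of the mice. By the study's methods the marrow for its BMMC cultures came from C57BL/6 mice of both sexes, aged 6 to 8 weeks.

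GATA factors bind the letters GATA in DNA through zinc fingers. Gata2 is needed in early progenitors and in mast cells, where it keeps the lineage and its receptor and protease genes on. Gata1 drives red cell, megakaryocyte and eosinophil development and acts with Gata2 at mast cell genes. In red cell development Gata1 replaces Gata2 at shared sites, and the balance of both factors is known to differ between lineages. The comparisons here ask how far each factor, and the ratio between them, moved with IgE stimulation and with the edited gene.

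The guides that define the genotypes are shown first, because every library carries one of these edits. Each is given 5′ to 3′ with the adjoining PAM in capitals.
crRNA_Kit_1: agtcgggatcaatgcacgtcAGG
crRNA_Kit_2: aaagccgaggccactcgcacGGG
crRNA_Mettl3_2-HDR: ggacacgtggagctctatccAGG
crRNA_Mettl3_3-HDR: gatggggtaaccaacaatcgAGG
Matched to GRCm39, the Kit guides lie at chr5:75767786-75767805 on the minus strand and chr5:75767877-75767896 on the plus strand, both in coding exon 2. The Mettl3 guides lie at chr14:52542420-52542439 on the minus strand, in coding exon 1, and at chr14:52542216-52542235 on the plus strand, in the first intron. None of the 4 targets is on the chromosome of either GATA gene. Gata1 lies at chrX:7825499-7844310 on the minus strand and Gata2 at chr6:88170559-88184018 on the plus strand.

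The DNA before the start of each factor is shown because both genes are known to bind GATA factors at their own control regions. The 250 bases before each start listed by RefSeq (table of GRCm38.p6, placed in GRCm39 by exact match) are written on the gene's strand, with a GATA match in capitals.
Gata1, chrX:7834150-7834399: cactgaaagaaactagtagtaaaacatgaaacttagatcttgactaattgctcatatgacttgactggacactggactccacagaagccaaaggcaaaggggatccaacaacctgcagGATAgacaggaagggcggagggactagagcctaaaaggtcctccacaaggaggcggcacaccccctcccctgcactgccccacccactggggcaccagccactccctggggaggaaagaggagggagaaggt
Gata2, upstream start, chr6:88170623-88170872: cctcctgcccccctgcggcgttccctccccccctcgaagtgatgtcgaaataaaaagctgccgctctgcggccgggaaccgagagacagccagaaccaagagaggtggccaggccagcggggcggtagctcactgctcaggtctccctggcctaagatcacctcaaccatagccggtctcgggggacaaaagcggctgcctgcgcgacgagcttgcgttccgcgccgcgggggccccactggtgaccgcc
Gata2, downstream start, chr6:88175396-88175645: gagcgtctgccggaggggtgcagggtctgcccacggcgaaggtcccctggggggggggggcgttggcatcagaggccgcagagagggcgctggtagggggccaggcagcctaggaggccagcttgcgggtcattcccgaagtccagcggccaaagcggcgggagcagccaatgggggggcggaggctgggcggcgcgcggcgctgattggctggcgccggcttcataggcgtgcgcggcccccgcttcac
The search covered 300 bases, 250 before and 50 after each start, on both strands. The 4 motifs of 6 letters were AGATAA, its variant AGATAG with another end, TGATAA with another start and TGATAG with both. The bare letters GATA, which each of these 4 motifs contains, were searched as well. No 6-letter match was found for Gata1 or for either Gata2 start, where 29.8% of all 32851 RefSeq promoters of this length held one. The bare letters GATA stood once before Gata1, starting 132 bases before its start, and in neither Gata2 window, against 57.9% of all promoters with GATA or its reverse complement. The Gata3 window held 1 TGATAG, 36 bases after the start. A match is a description of the letters and no evidence of binding. The windows differ in base composition, with 57.3% G and C and 4 CG pairs for Gata1. The Gata2 windows had 69.3% and 73.7% G and C and 32 and 29 CG pairs, against a median of 52.7% G and C over all promoters.

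Values below are normalized counts, the barcode counts of a probe divided by a factor from the library's 20 housekeeping probes. Endogenous probes received 504238 to 737910 counts per library, and negative control probes a mean of 7.13 to 22.8. The housekeeping factor ran from 0.715 to 1.36 and was higher in the stimulated library of 6 of 6 same-numbered pairs. Differences are log2 fold changes from edgeR's quasi-likelihood test with their standard errors (SE), with p-values adjusted by Benjamini-Hochberg over 545 endogenous probes, those that reached 20 counts in 3 or more libraries. A gene is said to have risen or fallen where that adjusted p was under 0.05. The p-values measure the spread between libraries within the 4 groups, with each library taken as independent. Libraries of the same number come from 1 set of cultures, which this fit does not take into account.

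Kit, the receptor of stem cell factor, is the only edited gene with a probe. Its normalized counts in unstimulated libraries labelled c-Kit KO were 1856, 2856 and 2826, against 4057, 2533 and 2456 in those labelled Mettl3 KO. In stimulated libraries the counts were 1159, 1613 and 738 against 1845, 1771 and 1550. Kit was lower in the c-Kit KO library in 3 of 3 same-numbered pairs after stimulation but in 1 of 3 without it, and edgeR's test gave log2 differences of 0.56 ± 0.32 (SE, adjusted p = 0.469) and 0.26 ± 0.32 (adjusted p = 0.997), Mettl3 KO over c-Kit KO. The probe lies at position 4275 of its RefSeq record, downstream of exon 2, which ends at 476 of transcript Kit-204. It therefore tests the labels only so far as the inserted stop ends transcription. The panel has no Mettl3 probe, so the Mettl3 label could not be checked from these counts. The study checked its edits by staining for both proteins, which was not analysed here.

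The cells read as mast cells by their defining genes. All 8 mast cell markers (Fcer1a, Ms4a2, Cpa3, Cma1, Tpsb2, Hdc, Il1rl1 and Hpgds) exceeded every negative control probe in all 12 libraries. Most markers of eosinophils and of megakaryocytes or platelets, 2 other lineages that use Gata1 or Gata2, gave almost no signal. Markers of red cells and basophils were not examined. Of 6 eosinophil markers 0 exceeded every negative control in all libraries, and Epx did so in none. Of 3 megakaryocyte or platelet markers, Selp and Clec1b exceeded it in 0 libraries and Pf4 stayed between 8.22 and 25.2 normalized counts. Siglecf, the most abundant of the eosinophil markers, ran from 11.0 to 132. Its raw count was not above the highest negative control probe in 6 of 6 unstimulated libraries, with 8 to 24 counts, and was above it in all 6 stimulated ones, with 24 to 160 counts, so no fold is given. Of 7 neutrophil or granulocyte precursor markers, 5 dendritic cell markers and 5 T or B cell markers, 0 exceeded every negative control in all libraries. Of 9 macrophage or monocyte markers 1 did, Cx3cr1, with 944 to 2430 raw counts in unstimulated and 78 to 426 in stimulated libraries.

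With housekeeping scaling, Gata2 was lower in every stimulated library than in every unstimulated one. In unstimulated c-Kit KO cells its normalized counts were 4226, 4189 and 4070 in replicates 1, 2 and 3, and in stimulated c-Kit KO cells 3257, 2837 and 2760. In Mettl3 KO cells they were 5317, 4136 and 3764 without stimulation and 2483, 3214 and 3069 with it. The 6 unstimulated libraries thus lay between 3764 and 5317 and the 6 stimulated ones between 2483 and 3257, with no overlap. Such a gap, with all unstimulated libraries above, was seen for 8.81% of the 545 tested probes. The raw Gata2 count, before scaling, was also lower in the stimulated library of 6 of 6 same-numbered pairs, but its ranges overlapped, from 2957 to 5241 without and from 2612 to 3767 with stimulation. Scaled by the positive control probes they overlapped too, from 2787 to 5447 and from 2258 to 5212. The raw difference was small in 1 of them, with 3073 counts stimulated and 3085 unstimulated in c-Kit KO replicate 1.

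Averaged over both genotypes, Gata2 fell by 0.54 on the log2 scale, to 0.686 of its unstimulated level (log2 fold change -0.54 ± 0.15 SE, 95% interval -0.88 to -0.21, adjusted p = 0.0129). The fit took the 12 libraries as independent, although both pairs of a replicate number come from 1 set of cultures. This p may therefore be too small. In this comparison 40.9% of tested probes passed the same threshold, 16.3% with a lower and 24.6% with a higher level after stimulation, so the fall of Gata2 was one of 89. The call depended on the scaling. With the 16 housekeeping probes of at least 100 mean counts the log2 fold change was -0.42 (adjusted p = 0.0518), and with the positive control probes it was -0.38 (adjusted p = 0.34). The call was also lost without replicate 1 (-0.45, adjusted p = 0.174), replicate 2 (-0.59, adjusted p = 0.0540) or replicate 3 (-0.60, adjusted p = 0.0651). The direction was the same in each. In RNA from a whole sorted population, fewer cells that express a gene and less RNA of it per cell cannot be told apart.

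Within a single genotype the fall of Gata2 did not pass the threshold. It was -0.50 ± 0.22 (SE, adjusted p = 0.127) in c-Kit KO cells, where 18.9% of tested probes passed, and -0.59 ± 0.22 (adjusted p = 0.0548) in Mettl3 KO cells, where 32.7% passed. With the replicate number as a block the Mettl3 KO value was -0.58 (adjusted p = 0.0383), which passed. The study's criteria were a 1.5-fold change and a p of 0.05 without adjustment. The study used them with t tests, and here only the cut-offs were taken and applied to edgeR's p and fold. In Mettl3 KO cells 42.0% of tested probes met them. There Gata2 met both, at 0.663 of its unstimulated level, and in c-Kit KO cells, at 0.709, it missed the fold. The fall varied more between the Mettl3 KO pairs, from 0.29 to 1.10 on the log2 scale, than between the c-Kit KO pairs, from 0.38 to 0.56. Replicate 1 of the Mettl3 KO cells held both the highest and the lowest Gata2 level of the series.

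**Figure D1:**
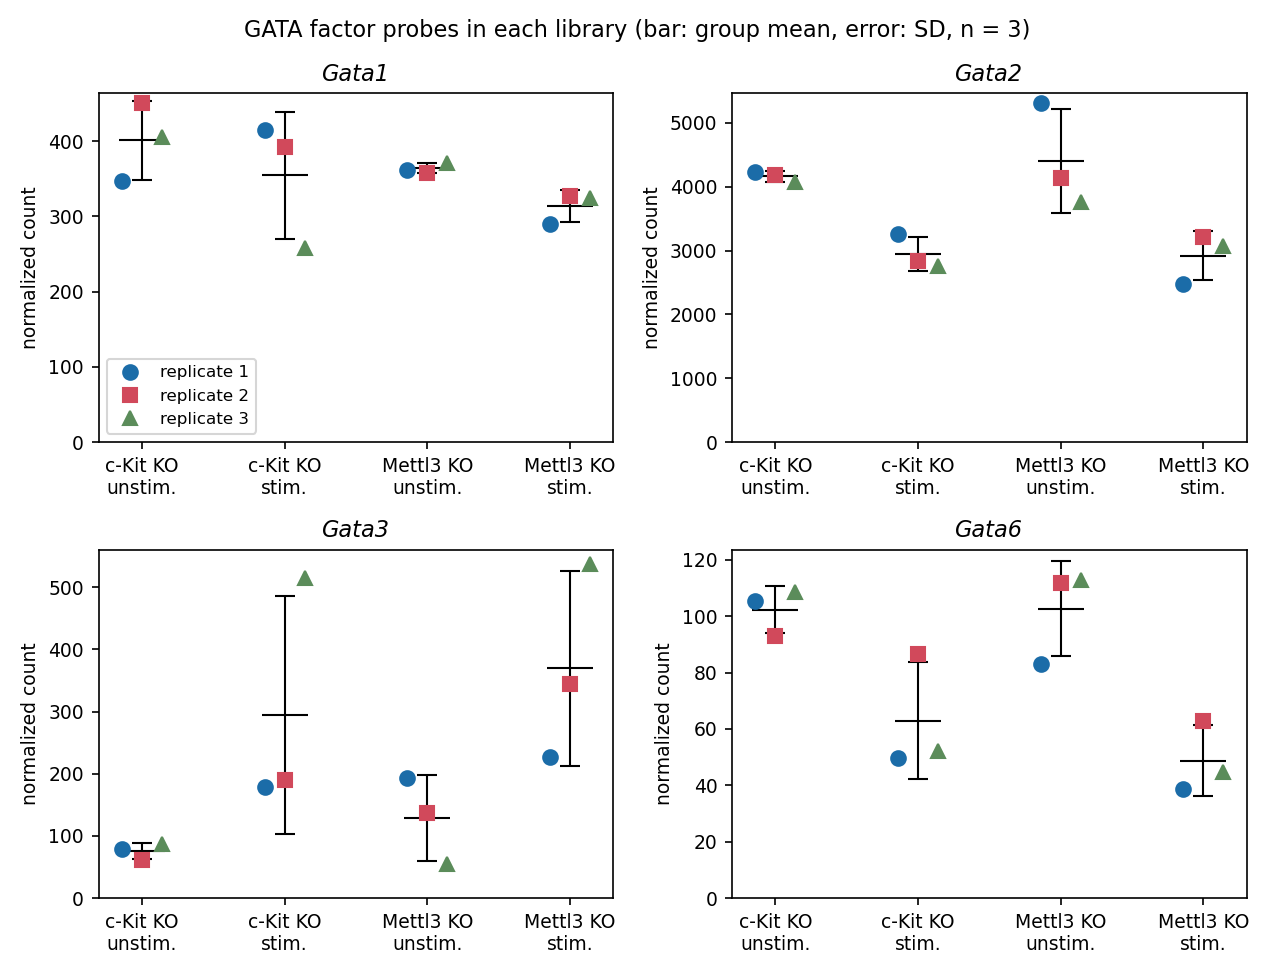
Normalized counts (vertical axis, from 0) of the 4 GATA probes of the panel in each of the 12 libraries, by group; points are replicates, horizontal bars the group means and error bars the SD (n = 3). With this housekeeping scaling Gata2 separates by stimulation with no overlap, whereas the unstimulated and stimulated ranges of Gata1 overlap.

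Gata1 did not pass the test in any comparison, and its unstimulated and stimulated libraries overlapped. Its normalized counts were 347, 451 and 406 in unstimulated and 414, 391 and 258 in stimulated c-Kit KO cells. In Mettl3 KO cells they were 362, 358 and 371 without stimulation and 289, 327 and 324 with it. With housekeeping scaling, all 3 stimulated Mettl3 KO libraries lay below all 3 unstimulated ones, by 0.13 to 0.32 on the log2 scale in same-numbered pairs. In c-Kit KO cells, with the same scaling, replicate 1 was higher after stimulation and replicates 2 and 3 were lower. The raw Mettl3 KO counts overlapped (357, 256 and 428 without, 321, 266 and 392 with stimulation), with replicate 2 higher after it. With positive control scaling, Gata1 was lower in the stimulated library of 3 of 6 same-numbered pairs of both genotypes. The fitted log2 fold change averaged over genotypes was -0.20 ± 0.16 (SE, adjusted p = 0.383), with a 95% interval from -0.55 to 0.16. That interval holds both no change and a change as large as that of Gata2. Within c-Kit KO cells the value was -0.18 ± 0.23 (adjusted p = 0.63) and turned positive with positive control scaling (0.094) and without replicate 3 (0.015). Within Mettl3 KO cells it was -0.21 ± 0.23 (adjusted p = 0.521).

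In order of mean Gata2 level the groups were Mettl3 KO at rest (4406 ± 811), c-Kit KO at rest (4162 ± 81.1), stimulated c-Kit KO (2951 ± 268) and stimulated Mettl3 KO (2922 ± 387; SD, n = 3 each). Neighbours of equal treatment overlapped in their libraries, and the only gap lay between the second and the third. In order of mean Gata1 level they were c-Kit KO at rest (401 ± 52.4), Mettl3 KO at rest (364 ± 6.79), stimulated c-Kit KO (355 ± 84.5) and stimulated Mettl3 KO (314 ± 21.2). Each of these neighbours overlapped. Within groups the coefficient of variation averaged 10.7% for Gata2 and 11.4% for Gata1, the 16th and 17th lowest of the 274 tested probes with a mean of at least 100 normalized counts, whose median was 25.4%.

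Neither factor differed detectably between the genotypes. Without stimulation, Gata2 was 0.082 ± 0.22 higher (log2, SE; 95% interval -0.39 to 0.55, adjusted p = 0.997) and Gata1 -0.14 ± 0.23 (95% interval -0.64 to 0.36, adjusted p = 0.997) in libraries labelled Mettl3 KO relative to those labelled c-Kit KO. In this comparison edgeR called 0 of 545 probes (0%), with 7 at an unadjusted p under 0.05, and DESeq2 called 0. After stimulation the differences were -0.014 ± 0.22 for Gata2 (95% interval -0.48 to 0.46, adjusted p = 0.985) and -0.18 ± 0.23 for Gata1 (95% interval -0.68 to 0.33, adjusted p = 0.79). Here 0.917% of tested probes passed, namely Il2, Il3, Ccr3, Gem and Timp3, all higher in Mettl3 KO cells and named after their values were seen. As folds, Mettl3 KO over c-Kit KO, the intervals of Gata2 run from 0.764 to 1.47 without stimulation and from 0.715 to 1.37 with it. Those of Gata1 run from 0.640 to 1.29 and from 0.624 to 1.26. The Gata2 differences between genotypes were smaller than their SE and changed sign under other scalings (-0.076 without stimulation with positive control scaling, 0.023 after it with 16 housekeeping probes).

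The response to stimulation was not shown to differ between genotypes for either factor. The interaction, the response of Mettl3 KO cells minus that of c-Kit KO cells, was -0.097 ± 0.31 for Gata2 (95% interval -0.76 to 0.57, adjusted p = 0.993) and -0.036 ± 0.33 for Gata1 (95% interval -0.75 to 0.68, adjusted p = 0.993). For the interaction edgeR called 0 of 545 probes (0%), with 23 at an unadjusted p under 0.05, and DESeq2 called 2.

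**Figure D2:**
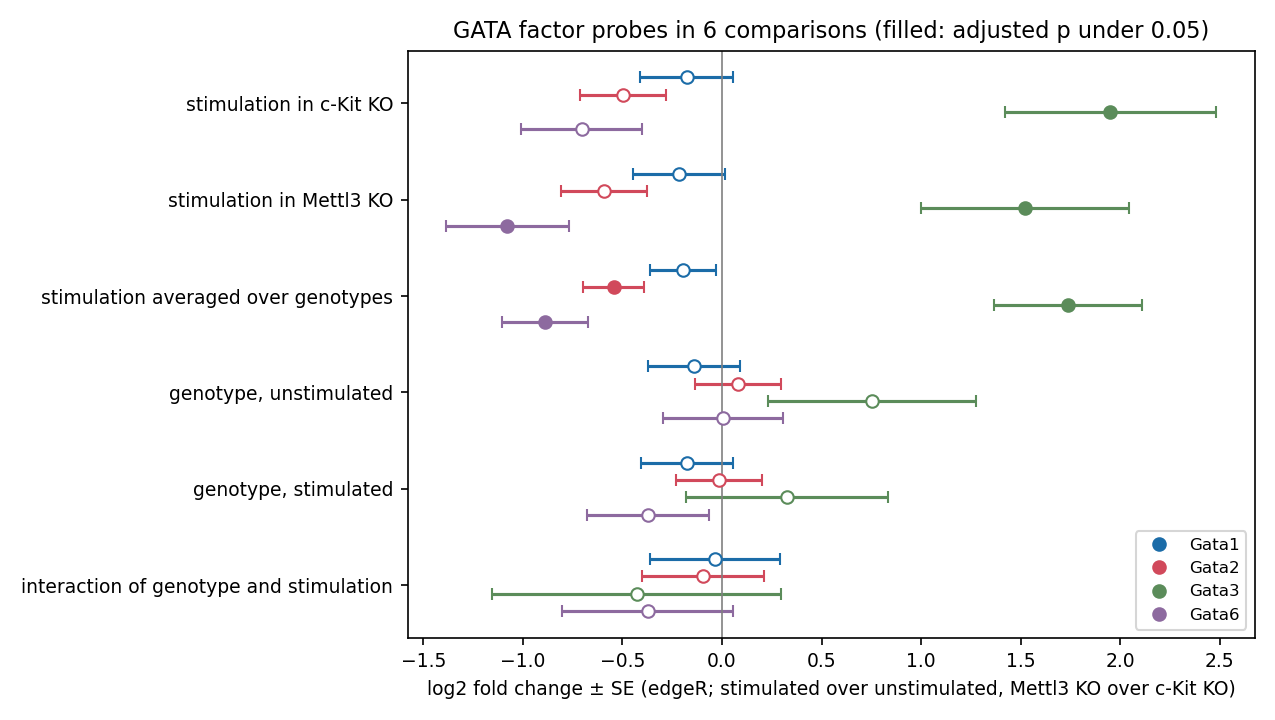
Log2 fold change with its SE (horizontal axis) of Gata1, Gata2, Gata3 and Gata6 in 6 comparisons, from edgeR; filled points have an adjusted p under 0.05. Gata2 is filled only for stimulation averaged over genotypes (-0.54), Gata1 is open throughout, and no genotype comparison has a filled point.

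The ratio of Gata2 to Gata1 counts needs no scaling, since both counts come from the same library. Probes differ in capture, so the ratio is compared between libraries and does not give molecules of one factor per molecule of the other. In unstimulated c-Kit KO cells it was 12.2, 9.29 and 10.0 in replicates 1, 2 and 3, and in stimulated c-Kit KO cells 7.86, 7.25 and 10.7. In Mettl3 KO cells it was 14.7, 11.6 and 10.1 without stimulation and 8.59, 9.82 and 9.46 with it. The ratio was lower after stimulation in 5 of 6 same-numbered pairs, with c-Kit KO replicate 3 the exception. The 95% counting interval (Clopper-Pearson) of a single ratio was, for example, 10.7 to 13.9 around 12.2 and 7.07 to 8.75 around 7.86. It covers counting error only, and its SE of 0.071 to 0.094 on the log2 scale was below the SD of 0.10 to 0.30 between replicates.

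Averaged over genotypes, the log2 ratio was lower by 0.33 after stimulation, a ratio at 0.793 of its unstimulated value (log2 difference -0.33, exact permutation of stimulation within genotypes, two-sided, p = 0.03, the smallest possible being 0.005). The geometric mean ratio was 11.2 over the 6 unstimulated and 8.87 over the 6 stimulated libraries. The ranges overlapped, from 9.29 to 14.7 and from 7.25 to 10.7. Over 6 same-numbered pairs, sign flips gave an exact p of 0.0625, where the smallest possible is 0.0312. Both pairs of a number come from 1 set of cultures and are not independent, so this p and that of the permutation over libraries are too small. With 1 value for each of the 3 numbers the exact p was 0.25, the smallest possible. The shift was largest in replicate 1, with -0.63 in c-Kit KO and -0.77 in Mettl3 KO cells, and without that replicate it was -0.15 (exact permutation p = 0.333). In replicate 3 the pairs differed by 0.092 and -0.10.

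Within c-Kit KO cells the log2 ratio differed by -0.30 (exact permutation, two-sided, p = 0.3) and within Mettl3 KO cells by -0.37 (exact permutation, p = 0.1, the smallest that 3 libraries against 3 allow). In Mettl3 KO cells all 3 stimulated ratios lay below all 3 unstimulated ones. The unstimulated ratio was higher in the Mettl3 KO library in 3 of 3 same-numbered pairs, by 0.014 to 0.31 on the log2 scale, but the groups overlapped (difference 0.20, exact permutation p = 0.4). After stimulation the difference between genotypes was 0.13 (exact permutation p = 0.5), and the interaction was -0.069 (exact permutation p = 0.8). The ratio was compared in 6 ways. Adjusted over these 6 by Benjamini-Hochberg, the p of 0.03 became 0.18 (exact permutation).

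**Figure D3:**
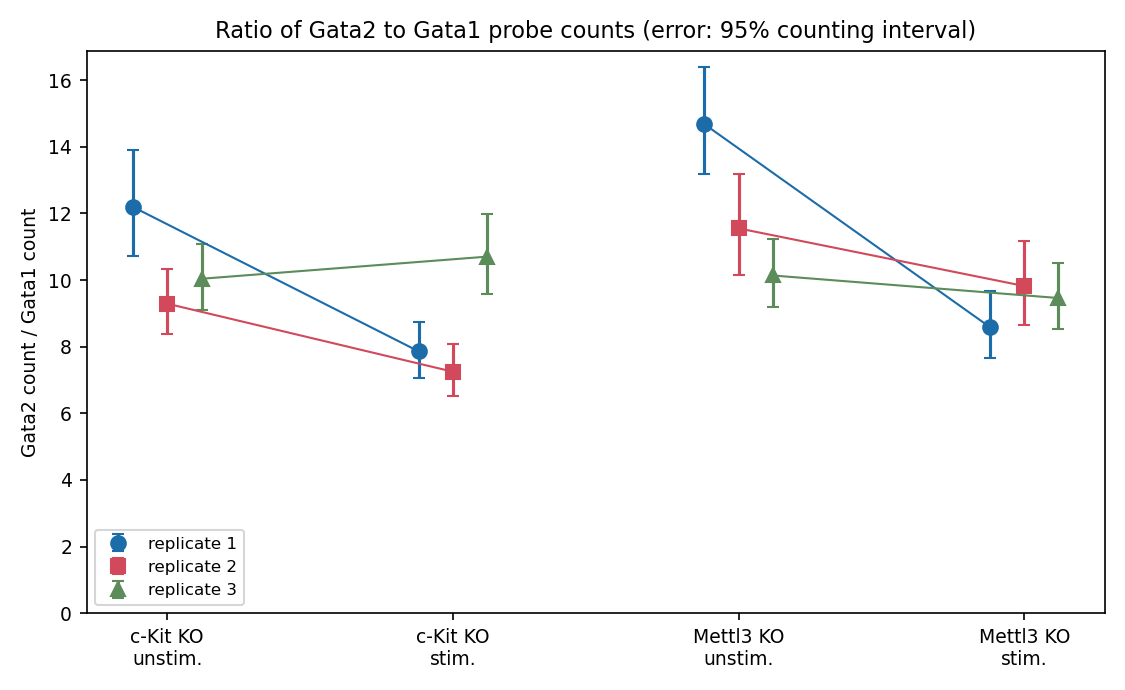
Gata2 count divided by Gata1 count in each library (vertical axis, from 0), by group; points are replicates with 95% counting intervals, and lines join unstimulated and stimulated libraries of the same number and genotype. Of the 6 lines 5 go down with stimulation, most steeply in replicate 1, and c-Kit KO replicate 3 goes from 10.0 to 10.7.

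Over the 12 libraries, log2 Gata1 and Gata2 levels had a Pearson r of 0.53. Both share libraries and the housekeeping factor. The r was -0.19 among the 6 unstimulated libraries, 0.58 among the 6 stimulated ones and 0.32 for deviations from the 4 group means. The 5 probes closest to Gata2 by this measure were Il4ra (r = 0.96), the IL-4 receptor chain, Pik3cg (0.95), a PI3 kinase subunit, Nfatc2 (0.95), a calcium-dependent transcription factor, Mob3c (0.93) and Sptbn1 (0.92), a spectrin. Their log2 fold changes with stimulation, averaged over genotypes, ran from -1.34 (Nfatc2) to -0.94 (Mob3c), and 5 of 5 passed as lower, beside 16.3% of all tested probes. They were picked for likeness to a gene whose libraries separate by stimulation, so this direction follows largely from the choice. The call of Mob3c was lost without replicate 1 (adjusted p = 0.0747). The 5 closest to Gata1 were Znrf2 (r = 0.82), Lat2 (0.78), Cd40 (0.78), Cx3cr1 (0.74) and B4galt4 (0.72). Of these Cx3cr1, a chemokine receptor, passed the test for stimulation (-3.18 ± 0.40, adjusted p = 7.6e-05). Lat2 did not as reported (-0.51 ± 0.20, adjusted p = 0.0646) but passed in 6 of 12 alternative settings, TMM and the replicate block among them, and in 1 of 15 fits with a replicate or library left out. Cd40 and B4galt4 were near background. The raw count of Cd40 was not above the highest negative control probe in 1 of 6 unstimulated and 5 of 6 stimulated libraries, and that of B4galt4 in 3 of 6 and 5 of 6, so their r is not a measured likeness. These are likenesses over 12 libraries of 4 groups, chosen as the highest of 544.

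The other GATA factors of the panel moved in opposite directions. Gata3, known from T helper 2 cells and also expressed in mast cells, rose with stimulation. Its normalized counts were 79.4, 62.0 and 87.0 in unstimulated and 178, 191 and 514 in stimulated c-Kit KO cells, and 194, 137 and 55.5 against 227, 345 and 536 in Mettl3 KO cells. It was higher in the stimulated library of 6 of 6 pairs. The log2 fold change was 1.74 ± 0.37 averaged over genotypes (adjusted p = 0.00288), 1.95 ± 0.53 in c-Kit KO cells (adjusted p = 0.0263) and 1.52 ± 0.52 in Mettl3 KO cells (adjusted p = 0.0422). That last call was lost in 8 of 13 alternative settings (adjusted p of up to 0.129), among them TMM (0.0541), background subtraction (0.0608) and the replicate number as a block (0.0534). The averaged call held in 15 of 15 fits that left out a replicate or library, but the call within c-Kit KO cells held in 2 of 9 (1.27 to 2.24, adjusted p of up to 0.143) and that within Mettl3 KO cells in 2 of 9 (0.78 without replicate 3 to 2.20 without replicate 1, adjusted p of up to 0.177). Unlike Gata2, Gata3 varied widely between replicates, with replicate 3 highest after stimulation in both genotypes. Gata6, a factor of endoderm and tissue macrophages, had low counts, from 43 to 130 raw against at most 38 for any negative control probe. Its normalized counts were 105, 92.9 and 109 in unstimulated and 49.8, 86.8 and 52.0 in stimulated c-Kit KO cells, and 83.2, 112 and 113 against 38.7, 62.8 and 44.7 in Mettl3 KO cells. It fell by 0.89 ± 0.22 averaged over genotypes (log2 fold change -0.89, adjusted p = 0.00575) and in Mettl3 KO cells (-1.08 ± 0.31, adjusted p = 0.0191), and had -0.70 ± 0.30 in c-Kit KO cells (adjusted p = 0.125). The averaged call was lost without replicate 1 or replicate 3 (adjusted p of up to 0.0929), and that in Mettl3 KO cells held in 4 of 9 fits with a replicate or library left out (adjusted p of up to 0.140).

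Among 8 mast cell genes known to depend on GATA factors, 4 fell, 1 rose and 3 did not pass the test for stimulation averaged over genotypes, with a median log2 fold change of -0.77 against -0.020 over all tested probes. The 4 of 8 that fell stand beside 16.3% of all tested probes, and the 5 of 8 that passed in either direction beside 40.9%. Ms4a2, the beta chain of the IgE receptor, fell to 0.249 of its unstimulated level (adjusted p = 4.97e-05). Its normalized counts were 9771, 8086 and 7018 in unstimulated and 3419, 2208 and 1441 in stimulated c-Kit KO cells, and 11319, 9536 and 7172 against 2290, 2216 and 1632 in Mettl3 KO cells. The 6 stimulated libraries lay below all unstimulated ones, as for Gata2. Cpa3, the mast cell carboxypeptidase, changed by -1.25 ± 0.24 (adjusted p = 0.00141), and Fcer1a, the IgE-binding chain of the same receptor, by -1.31 ± 0.31 (adjusted p = 0.00471, or 0.0784 without replicate 1). Kit fell too (-0.96 ± 0.23, adjusted p = 0.00517). Hdc, which makes histamine, moved the other way, from 125 to 738 normalized counts in unstimulated to 1134 to 2924 in stimulated libraries (2.25 ± 0.47, adjusted p = 0.00258). The protease genes Cma1 (-0.59 ± 0.24, adjusted p = 0.067) and Tpsb2 (-0.32 ± 0.27, adjusted p = 0.385) and the IL-33 receptor gene Il1rl1 (0.12 ± 0.23, adjusted p = 0.714) did not pass.

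The summed level of the 8 mast cell markers moved with stimulation. It was 431682, 453152 and 348029 in unstimulated and 239445, 300183 and 180067 in stimulated c-Kit KO libraries. In Mettl3 KO libraries it was 358904, 497043 and 392877 without and 161255, 252849 and 171630 with stimulation, and Cpa3 was its most abundant gene. The sum of 9 macrophage or monocyte markers also moved, from 1488 to 2341 in unstimulated and from 177 to 571 in stimulated libraries. This move was that of Cx3cr1, its most abundant gene by the mean over the 12 libraries. The other 8 markers summed to 122 to 168 in unstimulated and 120 to 158 in stimulated libraries, and Mertk, C1qb and C1qc exceeded the negative controls in 0 libraries. The part of these shifts in the Gata2 result was not tested.

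**Figure D4:**
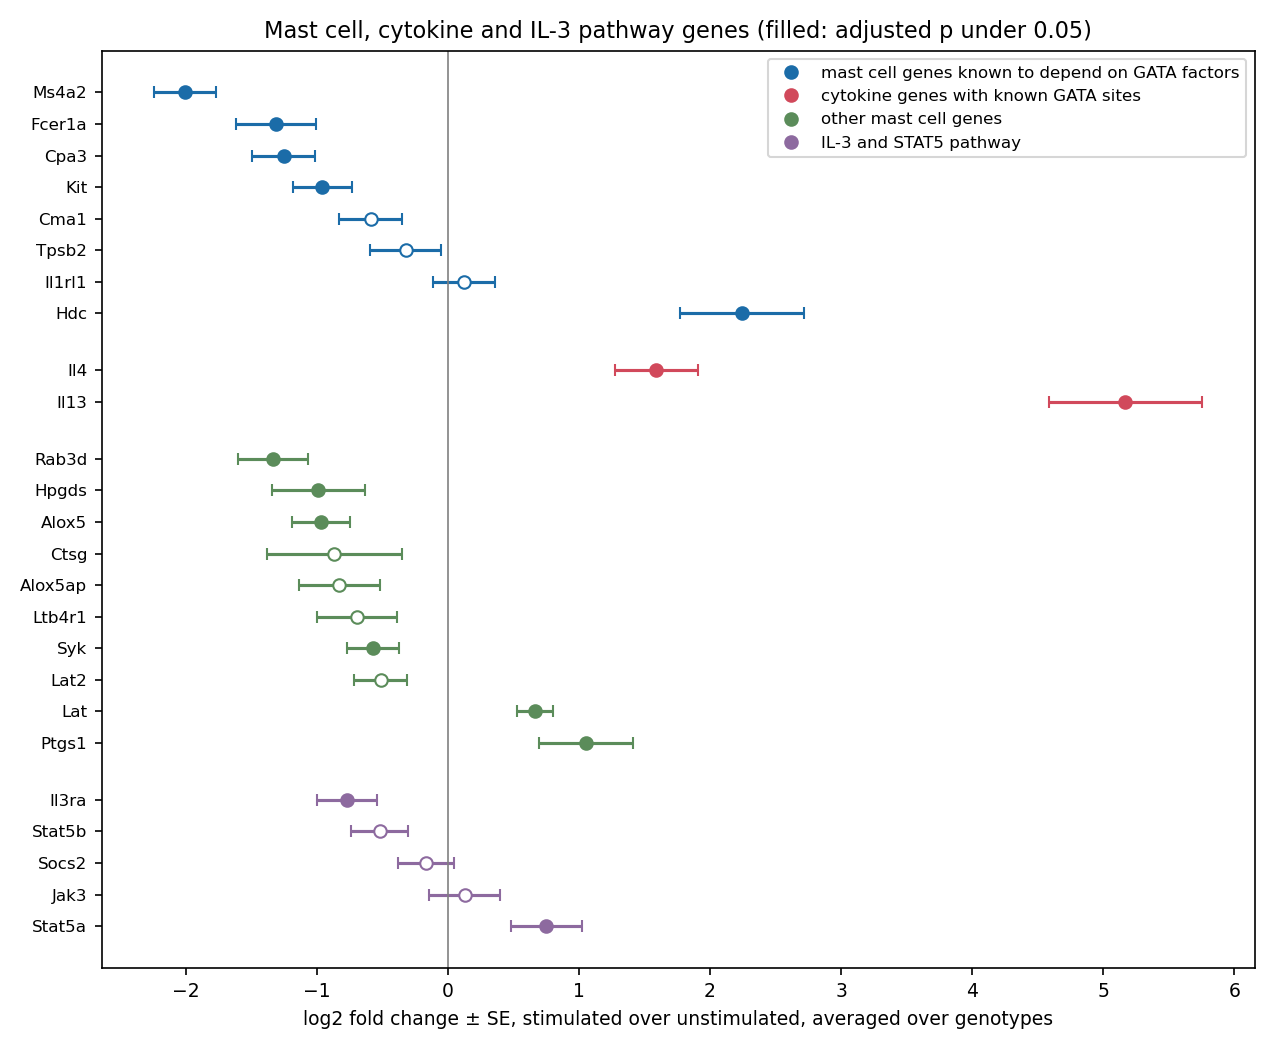
Log2 fold change with its SE (horizontal axis), stimulated over unstimulated and averaged over genotypes, for the tested genes of 4 lists; filled points have an adjusted p under 0.05. Ms4a2 is lowest and Il13 highest (5.17), and 6 of the 8 genes known to depend on GATA factors lie below 0.

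Of 3 cytokine genes with known GATA sites, 2 were tested and both rose, beside 24.6% of all tested probes. Il13 changed by 5.17 ± 0.59 (adjusted p = 4.82e-05) and Il4 by 1.59 ± 0.32 (adjusted p = 0.00192), while Il5 had too few counts to be tested. Il13 was between 53.9 and 211 normalized counts in unstimulated libraries and between 298 and 11154 in stimulated ones. Il4 was between 167 and 318 and between 201 and 1142.

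Of 10 other mast cell genes, without a place in the list above, 4 fell, 2 rose and 4 did not pass, with a median of -0.76. In all, 60.0% of these 10 passed, beside 40.9% of all tested probes. Rab3d, a granule GTPase (-1.33 ± 0.27, adjusted p = 0.00197), and Alox5, the 5-lipoxygenase of leukotriene synthesis (-0.97 ± 0.22, adjusted p = 0.00394, or 0.110 with positive control scaling), fell. Lat, an adaptor of the IgE receptor pathway (0.66 ± 0.14, adjusted p = 0.00215), rose. Ptgs1, a cyclooxygenase, passed as reported (1.05 ± 0.36, adjusted p = 0.0333) but in only 6 of 15 fits with a replicate or library left out, where it ran from 0.57 without replicate 3 to 1.37 without replicate 1, with an adjusted p of up to 0.242. The median of these 10 genes was thus close to that of the 8 known to depend on GATA factors.

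Of 24 other transcription factors of blood lineages, 23 were tested, of which 9 rose, 3 fell and 11 did not pass, with a median of -0.011. The 52.2% that passed are close to the 40.9% of all tested probes. Nfil3, a bZIP factor (3.22 ± 0.24, adjusted p = 4.07e-06), Ets1 (2.56 ± 0.22, adjusted p = 8e-06) and Batf, an AP-1 partner (1.12 ± 0.16, adjusted p = 0.000201), rose. Erg, an ETS factor of progenitors that works beside Gata2, fell (adjusted p = 0.000682), from 70.3 to 99.4 normalized counts in the unstimulated libraries to 17.2 to 54.1 in the stimulated ones. In 4 of 6 stimulated libraries its raw count was not above the highest negative control probe, so the size of the fall was not measured, and the fitted log2 value ran from -2.69 to -1.37 over the other settings. In the pathway of IL-3, the cytokine in which the cells were grown, 5 of 6 genes were tested. The receptor chain Il3ra fell (-0.77 ± 0.23, adjusted p = 0.0177), Stat5a was higher (0.75 ± 0.27, adjusted p = 0.0426) and 3 did not pass. The 40.0% of these 5 that passed are close to the 40.9% of all tested probes. The call of Il3ra was lost without replicate 2 or replicate 3 (adjusted p of up to 0.179). That of Stat5a held in only 5 of 15 fits with a replicate or library left out, which gave 0.49 to 1.03 and an adjusted p of up to 0.225. Stat5b, one of the 3 (-0.52 ± 0.22, adjusted p = 0.0772), passed in 4 of 12 alternative settings and in 2 of 15 fits with a replicate or library left out. For genotype, 0 of the 50 tested members of these lists passed, without or with stimulation, where 0% and 0.917% of all tested probes did. By the study's cut-offs, applied to edgeR's p and fold without adjustment, 14.1% of all tested probes differed between the stimulated genotypes. Of the 50 list members 7 did (Il13, Il4, Batf, Ets1, Cebpb, Cebpg and Stat5a), each with a higher value in Mettl3 KO cells. Without stimulation 0 did. The raw count of Cebpg was not above the highest negative control probe in 4 of 6 stimulated libraries, so its difference was not measured. Il13 had the largest fitted difference of the 7 (log2 difference 2.43 ± 0.73, adjusted p = 0.162). Its normalized counts were 1583, 298 and 2378 in stimulated c-Kit KO and 11154, 9363 and 2463 in stimulated Mettl3 KO cells. It was higher in the Mettl3 KO library of 3 of 3 same-numbered pairs, and replicate 3 lay close in both genotypes.

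**Figure D5:**
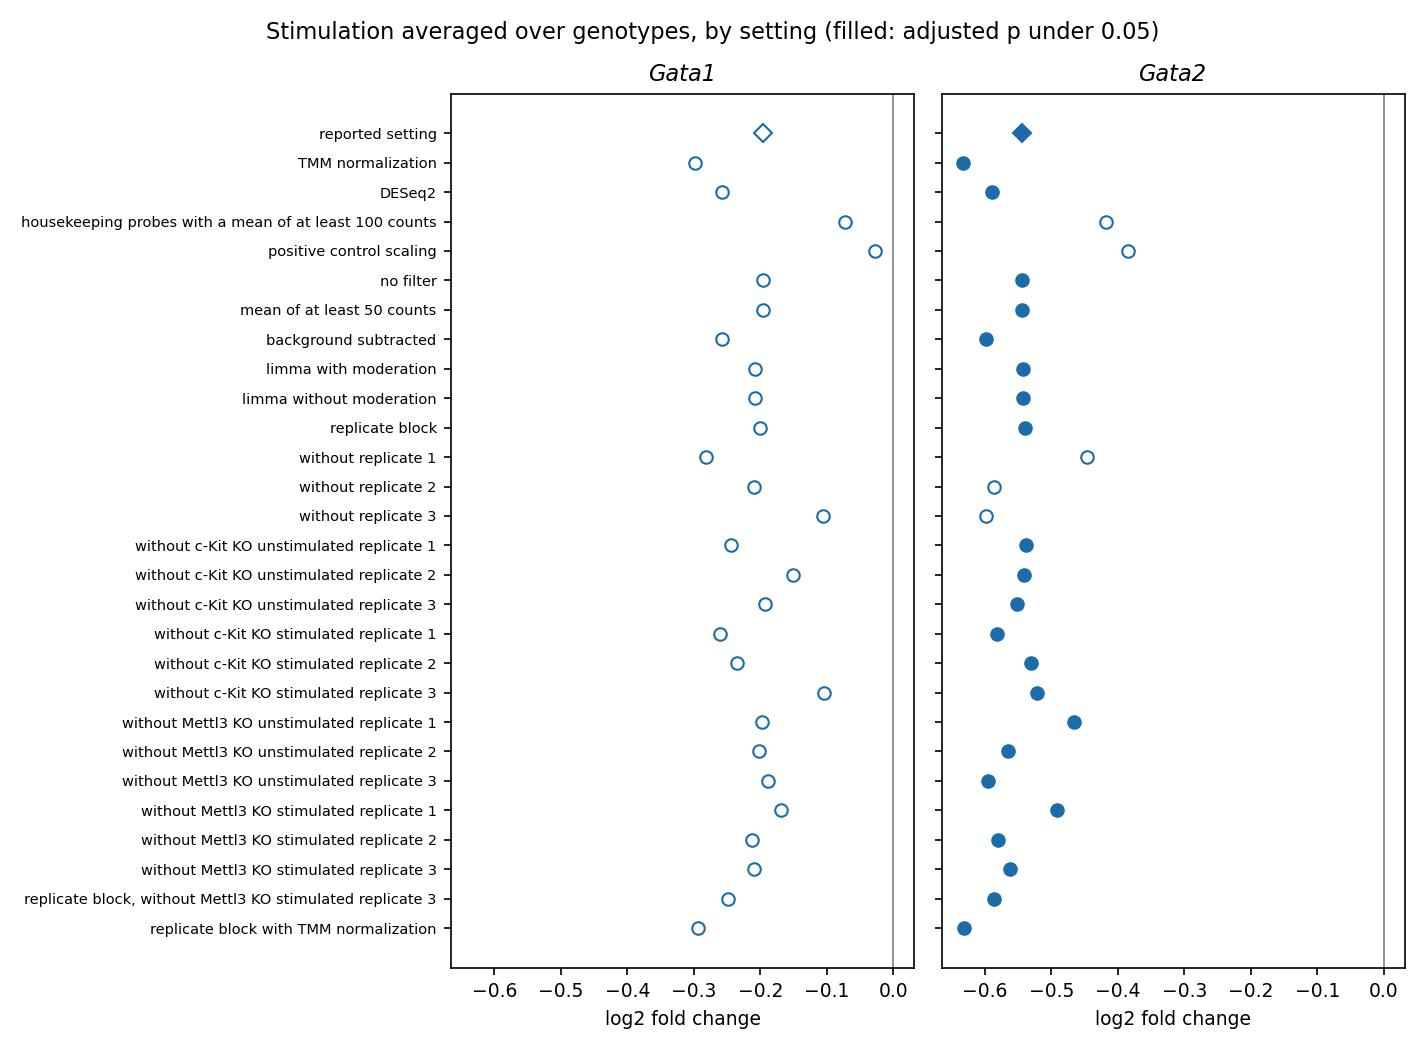
Log2 fold change of Gata1 and Gata2 for stimulation averaged over genotypes (horizontal axis) under each setting (rows); the diamond is the reported setting and filled points have an adjusted p under 0.05. All points lie below 0; Gata2 is open with 2 of the scalings and without each replicate number, and Gata1 is open throughout.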

How the data were processed

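RNA (40 ng per sample) was hybridized to the nCounter Myeloid Innate Immunity Panel, and the authors deposited raw barcode counts for 768 probes in 12 samples (734 endogenous, 20 housekeeping, 6 positive control and 8 negative control). The counts were not scaled and involve no alignment. The 4 summary columns over all samples in the same table (mean, minimum, maximum and coefficient of variation) were not used. The columns of single samples were matched to samples by title, and 0 of them were left over.

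Normalized counts are counts divided by a library factor, the geometric mean over 20 housekeeping probes, set to average 1 over the libraries. Probes with at least 20 counts in at least 3 libraries (545) were tested with edgeR 4.0.16 in R 4.3.3 (quasi-likelihood test, library sizes from the housekeeping factors, 1 model of 4 groups, Benjamini-Hochberg adjustment). Intervals used the degrees of freedom of that test. The Gata2 to Gata1 ratio was compared by exact permutation tests (Python 3.11.15). Likeness was Pearson's r on log2(normalized count + 1). The script was tested on simulated data.

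Gata1, Gata2, Kit and the members of the gene lists with the smallest adjusted p for stimulation averaged over genotypes were named, together with the 5 probes most like each factor. These members, lists and tests were chosen with earlier results of these data known.

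Replicate numbers come from the labels, and the series describes 3 sets of cultures. Deviations from group means correlated in 18 of 18 same-numbered pairs (r from 0.14 to 0.52, mean 0.33), so the numbers were taken to pair the samples. The mean of -0.17 for different numbers is no separate support, since the deviations within a group sum to 0. No pair of replicates agreed within counting noise.

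Alternatives were TMM normalization, DESeq2 1.42.0, 16 housekeeping probes, positive control scaling, other filters, background subtraction, limma 3.58.1 with and without moderation, only the groups compared, the replicate block and leaving out replicates. A pseudocount of 20 was tried for the ratio. After seeing the data, the block without stimulated Mettl3 KO replicate 3, which carries another number in another copy of the counts, and the block with TMM were added. Guides came from the study's oligonucleotide list and positions from GRCm39 with GENCODE.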

Additional observations from a re-analysis of the deposited data

How the results depend on the processing

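Of 369 values of Gata1, Gata2 and their ratio under an alternative, 316 kept the direction and side of the threshold of the reported result, 26 turned direction, 17 lost a call and 10 gained one. The ratio averaged over genotypes lost its p in 12 of 19 alternatives, and Gata2 in Mettl3 KO cells gained a call in 8 of 22. Some of these 12 losses were fixed by the test. With 1 value per replicate number the smallest possible exact p is 0.25, and without a replicate number too few arrangements remain for a p under 0.05. In the other comparisons of the ratio the smallest possible p is 0.1 or more, so only their direction could change. The cause of the other changes was not tested. Another scaling moved all probes, as the median log2 fold change for stimulation averaged over genotypes was -0.020 as reported, -0.11 with TMM and 0.14 with positive control scaling. After stimulation the median difference between genotypes was 0.20 as reported and 0.0083 with TMM. Genes near the 7.13 to 22.8 counts of the negative controls could not be measured, which does not concern Gata1 or Gata2.

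Gata2 after stimulation averaged over genotypes was -0.42 with 16 housekeeping probes (adjusted p = 0.0518) and -0.38 with positive control scaling (adjusted p = 0.34), and ran from -0.60 to -0.45 with replicates or libraries left out. Within c-Kit KO cells it passed with DESeq2 (-0.47, adjusted p = 0.0245) and with limma without moderation (-0.50, adjusted p = 0.0491). In Mettl3 KO cells it passed with TMM (-0.76), DESeq2 (-0.71), a mean count of at least 50 (-0.59), background subtraction (-0.67) and limma without moderation (-0.59), but in 0 of 9 fits with a replicate or library left out, which ran from -0.73 to -0.33 (without replicate 1, adjusted p = 0.54). Gata1 in c-Kit KO cells was 0.094 with positive control scaling and ran from -0.40 to 0.015 with replicates or libraries left out. Between genotypes without stimulation, Gata2 was -0.076 with positive control scaling and ran from -0.075 to 0.18. After stimulation it was 0.023 with 16 housekeeping probes and 0.0012 with background subtraction and ran from -0.12 to 0.17, while Gata1 ran from -0.39 to 0.0063. The Gata1 interaction was 0.020 with 16 housekeeping probes and ran from -0.24 to 0.24, and the Gata2 interaction ran from -0.27 to 0.23.

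With the replicate number as a block, Gata2 in Mettl3 KO cells passed (-0.58, adjusted p = 0.0383), also without stimulated Mettl3 KO replicate 3 (-0.67, adjusted p = 0.0469) and with TMM (-0.75, adjusted p = 0.00718), and the ratio averaged over genotypes did not (-0.33, exact p = 0.0625, or 0.25 with 1 value per replicate number, which was added after seeing the data). The block changed no other call of Gata1, Gata2 or their ratio. The count of genes called for stimulation in c-Kit KO cells, 103, was 156 with the block, 160 with the block and without that library, and 169 with the block and TMM. The 5 genes called between stimulated genotypes became 45 and 2 under the latter settings, 23 with DESeq2, 2 with positive control scaling, 3 with background subtraction, 0 with limma without moderation and 0 with only the groups compared. The interaction, with 0 called, had 2 (Ccr3 and Il2) with DESeq2 and 3 with the block without that library.

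With replicates or libraries left out, counts ran from 32 to 107 in c-Kit KO cells (lowest without replicate 1), 71 to 180 in Mettl3 KO cells (lowest without replicate 1), 0 to 33 between stimulated genotypes (highest without replicate 3 and without stimulated Mettl3 KO replicate 3) and 0 to 5 for the interaction. The log2 ratio ran from -0.50 to -0.15 averaged over genotypes, from -0.025 to 0.30 between stimulated genotypes and from -0.24 to 0.13 for the interaction. Without 1 library at a time the averaged ratio kept p under 0.05 in 5 of 12 cases. For genes named only once, Socs2 (0.0075) and Cd40 (0.037) turned positive with positive control scaling, and Cd40 ran from -0.60 to 0.013 with replicates left out. Cd40 was not above the highest negative control in 5 of 6 stimulated libraries, so these Cd40 values are no measured difference.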
